A study of Mus musculus with 12 samples.

Results

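The genes described here are the EGF receptor family of mouse pancreatic cancer cells and its ligands: the receptors Egfr, Erbb2 and Erbb3, the ligands Areg, Ereg, Hbegf, Tgfa and Btc, and the feedback inhibitor Errfi1. They were taken by gene symbol, and all 9 were listed in each of the 12 libraries, among 15803 genes with a read in at least 1 library. KPC cells, a pancreatic ductal adenocarcinoma (PDAC) line from tumors of genetically engineered mice with the allele Trp53 LSL-R172H and the driver Pdx1-Cre, received 20 μM cisplatin (Cis, a platinum drug that crosslinks DNA) for 6 or 21 h or PBS without drug. Every group, the PBS controls included, therefore carries the same engineered alleles, recombined in the pancreatic lineage by Pdx1-Cre. Each group had 2 libraries of ribosome footprints, the mRNA fragments protected by translating ribosomes, and 2 of RNA-seq from lysates prepared in the same way, with cycloheximide (CHX) in the lysis buffer to hold ribosomes in place.

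All libraries come from a single cell line, and the labels do not say whether the 2 libraries of a group were separate cultures, so the p-values below measure the spread between these libraries, which may be technical. The control libraries are labelled as untreated, with no duration, and the same controls served 6 h and 21 h. Cis and time in culture therefore cannot be told apart in the changes below. Footprint libraries held 3375480 to 5204127 reads and RNA-seq libraries 1985344 to 2901692, of which 51.8% to 56.6% fell on Lars2, Tmem38b and Mettl26, leaving 862476 to 1341584 for all other genes. The cells carried the markers of ductal epithelium Krt8, Krt18, Krt19 and Cdh1, with mean footprint levels of 4300, 1700, 2377 and 117.4 RPKM (reads scaled by length and by the total of the library), whereas Epcam and Muc1, also on that list, were at 1.05 and 0.47 RPKM. The summed footprint level of the 8 ductal markers was 9113 to 9795 RPKM with PBS, 9313 to 9372 at 6 h and 6728 to 6861 at 21 h. Ptprc, Adgre1, Pecam1, Cdh5 and Kdr, which define leukocytes and endothelium, were at or under 0.13 RPKM, whereas Cd68 and Cd14, also on the leukocyte list, were at 2.504 and 74.33 RPKM. Of the fibroblast genes, Col1a1, Col1a2, Dcn and Pdgfra were under 0.8 RPKM and Acta2 was at 9.66 RPKM. Of 6 acinar and endocrine genes, 2 were listed, and their summed footprints, all of Cela1, were 1.69 to 3.23 RPKM with PBS, 2.67 to 3.34 at 6 h and 6.10 to 6.12 at 21 h, and their RNA 2.20 to 3.75, 1.58 to 3.65 and 0.43 to 2.33 RPKM. The part of these marker shifts in the results below was not tested.

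EGF receptors are tyrosine kinases of the cell surface that pair when a ligand binds, phosphorylate each other and start RAS-MAPK and PI3K signaling. Areg, Ereg, Hbegf, Tgfa and Btc encode membrane-anchored precursors, from which ADAM proteases cut the active growth factor, and Errfi1 (Mig6) binds the kinase domain of the activated receptors and shuts it off. In the pancreas, this signaling is known for its part in the conversion of acinar to ductal cells and in tumor formation.

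At 21 h with Cis, the ligands Areg, Ereg and Hbegf and the inhibitor Errfi1 were higher than with PBS, in footprints and in RNA. The footprints of Egfr were lower. Their promoters show what stood at the start of some of these genes. The stretches below run from 100 bases before to 50 after the annotated start site, 5′ to 3′, from RefSeq on GRCm38.p6, an older build than the GRCm39 of the deposited files. Capitals mark the palindrome TGACGTCA, known as the cAMP response element, and the TATA box TATAAA. They are shown for 2 genes that rose (Areg and Errfi1), for Btc, which neighbours Areg, and for Egfr, which fell.
Areg, chr5:91139499-91139648, plus strand: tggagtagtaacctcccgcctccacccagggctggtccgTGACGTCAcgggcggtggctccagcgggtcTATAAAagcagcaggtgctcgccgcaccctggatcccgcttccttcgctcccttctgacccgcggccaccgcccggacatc
Errfi1, chr4:150854970-150855119, plus strand: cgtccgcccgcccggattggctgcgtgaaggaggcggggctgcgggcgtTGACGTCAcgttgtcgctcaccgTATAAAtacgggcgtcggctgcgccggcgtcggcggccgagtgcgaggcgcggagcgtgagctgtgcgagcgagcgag
Btc, chr5:91402945-91403094, minus strand: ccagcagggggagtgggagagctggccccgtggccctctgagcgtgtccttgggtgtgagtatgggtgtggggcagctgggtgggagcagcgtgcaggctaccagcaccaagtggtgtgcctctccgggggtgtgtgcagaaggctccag
Egfr, chr11:16752103-16752252, plus strand: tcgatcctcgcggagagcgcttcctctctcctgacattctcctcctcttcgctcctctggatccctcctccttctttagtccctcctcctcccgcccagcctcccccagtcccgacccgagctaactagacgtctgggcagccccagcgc

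Areg and Errfi1 had both elements in the same order. In Areg, TGACGTCA began 61 bases and TATAAA 31 bases before the start site. In Errfi1 they began 51 and 28 bases before it, and the other annotated Errfi1 start, further upstream, had neither. The windows of Egfr, Erbb2, Tgfa and Btc held none of the motifs searched on both strands. The motifs were these 2, TGANTCA (a loose form of the AP-1 site, with any base in the middle) and the CArG box (the site of SRF). Areg and Errfi1 also lacked TGANTCA and the CArG box. No window was on hand for Erbb3, Ereg or Hbegf. Of 32851 RefSeq windows of 300 bases, 1.79% held TGACGTCA, 13.6% TATAAA, 7.81% TGANTCA and 1.63% the CArG box, and 56 (0.17%) held both TGACGTCA and TATAAA. A match describes the sequence only, and binding was not measured.

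**Figure D1:**
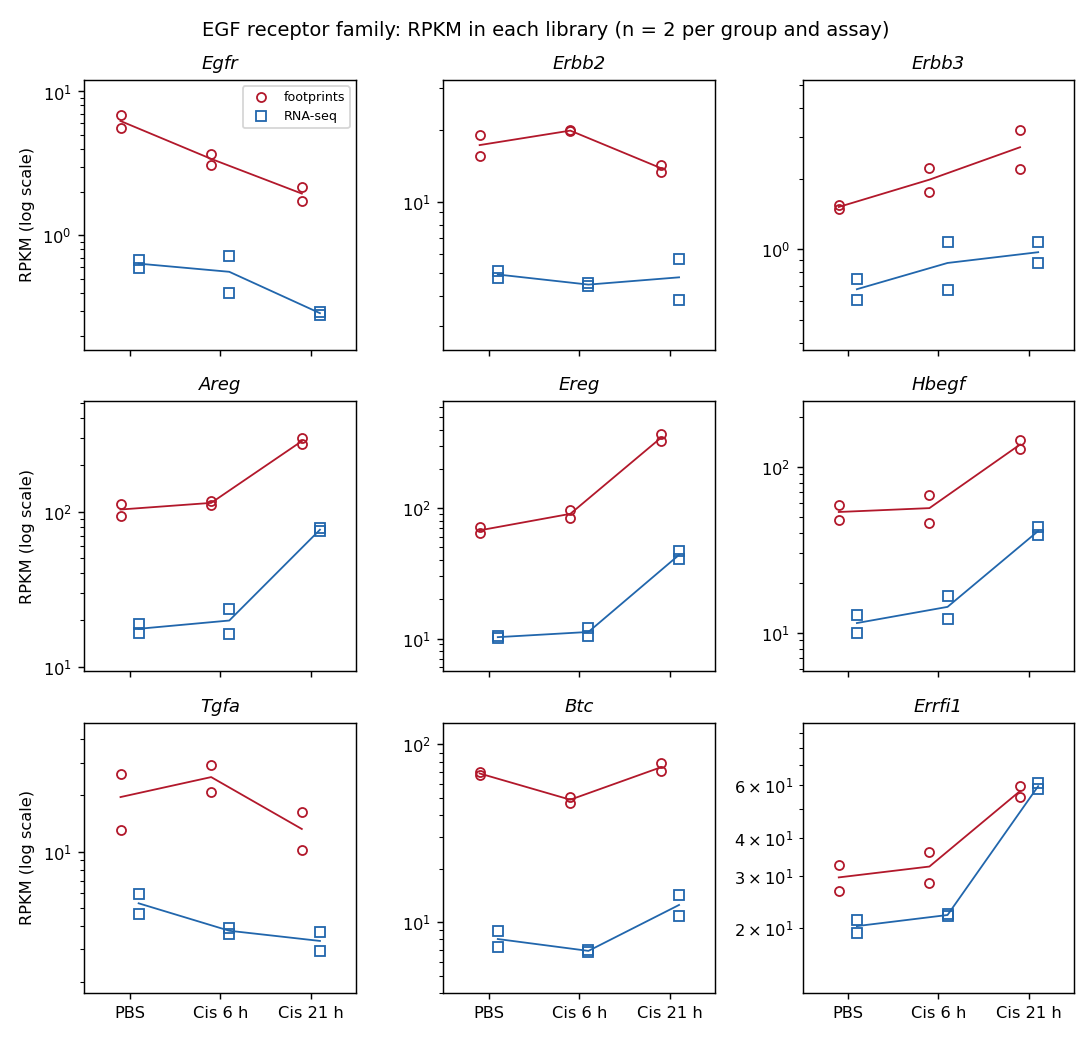
RPKM of each of the 9 genes (log scale) in every library, with footprints as red circles, RNA-seq as blue squares and lines through the group means (n = 2). Areg, Ereg, Hbegf and Errfi1 lay higher at 21 h than in all PBS and 6 h libraries in both assays, and the footprints of Egfr lay lower.

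Among the receptors, the footprints of Egfr fell with Cis. Egfr, which binds all 5 ligands described here, had 5.61 and 6.86 RPKM of footprints with PBS, 3.70 and 3.10 at 6 h, and 2.17 and 1.74 at 21 h. The 3 groups did not overlap, and each was lower than the group before it. At 21 h the level was 2.80-fold lower than with PBS (log2 fold change -1.49 ± 0.25, SE; 95% interval -2.06 to -0.91; limma, adjusted p = 0.00217). At 6 h the difference was -0.80 (-1.37 to -0.23) and did not pass the threshold (limma, adjusted p = 0.123), and neither did 21 h against 6 h (-0.69, adjusted p = 0.0692). Behind these values stood 106 and 116 reads with PBS, 63 and 38 at 6 h, and 29 and 22 at 21 h. Because lysates were made from whole cultures, a change in every cell and a change in the share of expressing cells cannot be told apart. This holds for Egfr and all genes below.

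Egfr RNA was scarce: 0.60 and 0.68 RPKM with PBS, 0.39 and 0.72 at 6 h, and 0.29 and 0.28 at 21 h. Both 21 h libraries were below the 4 others, on 7 and 6 reads against 15 and 20 with PBS. The mean lay under the filter of 1 RPKM, so Egfr RNA was not tested; in the fit without the filter, its change at 21 h was -0.55 (-1.17 to 0.06; limma, adjusted p = 0.239).

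Erbb2, the receptor without a ligand of its own and the preferred partner of the others, was the best-represented receptor. Its footprint levels were 15.6 and 19.1 RPKM with PBS, 19.8 and 20.1 at 6 h, and 13.4 and 14.3 at 21 h. Both 21 h libraries were the lowest, and both 6 h libraries were above PBS. The change against PBS was 0.19 (-0.17 to 0.55) at 6 h and -0.34 (-0.70 to 0.01) at 21 h, on the log2 scale, and passed the threshold at neither time (limma, adjusted p = 0.523 and 0.115). From 6 to 21 h Erbb2 fell by 0.53 on the log2 scale (SE 0.16; limma, adjusted p = 0.0325), but without either 6 h library the adjusted p was 0.113 and 0.131, and without either 21 h library 0.101 and 0.0637. Erbb2 RNA showed no such order, with 5.11 and 4.74 RPKM (PBS), 4.52 and 4.41 (6 h) and 3.86 and 5.73 (21 h).

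Erbb3, which has little kinase activity and couples to PI3K, was the lowest of the receptors in PBS footprints. It had 1.48 and 1.55 RPKM with PBS, 1.75 and 2.21 at 6 h, and 3.24 and 2.21 at 21 h, on 29 to 48 reads per library. The treated libraries were all above PBS, and the change at 21 h was 0.63 (-0.06 to 1.32; limma, adjusted p = 0.131). Erbb3 RNA, at 0.61 to 1.08 RPKM and 8 to 15 reads per library, was below the filter and not tested. In PBS, the footprint levels followed the order Erbb2, Egfr, Erbb3, with no overlap between neighbours. At 21 h both Egfr libraries were below both Erbb3 libraries, but the nearest were at 2.17 and 2.21 RPKM, on 29 and 31 reads. Levels of different genes were not tested against each other.

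The ligands Areg, Ereg and Hbegf rose together at 21 h. Areg (amphiregulin) had 94.3 and 112 RPKM of footprints with PBS, 110 and 117 at 6 h, and 297 and 273 at 21 h. PBS and 6 h overlapped, and 21 h stood 2.69-fold above PBS (log2 1.43 ± 0.11, SE; limma, adjusted p = 5.68e-05). Areg RNA was 16.4 and 18.7 RPKM with PBS, 16.2 and 23.5 at 6 h, and 74.6 and 78.4 at 21 h. That is a 4.03-fold rise (log2 2.01 ± 0.17; limma, adjusted p = 9.92e-05).

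Ereg (epiregulin) made the largest change of the 9 genes in footprints. Its level was 64.1 and 71.1 RPKM with PBS, 83.3 and 97.5 at 6 h, and 325 and 368 at 21 h. The 3 groups did not overlap. Against PBS the rise at 21 h was 4.97-fold (log2 2.31 ± 0.12, SE; limma, adjusted p = 7.95e-06), whereas at 6 h the difference of 0.40 (0.13 to 0.67) did not pass (limma, adjusted p = 0.107). Ereg RNA was 10.04 and 10.44 RPKM with PBS, 12.0 and 10.5 at 6 h, and 40.6 and 47.1 at 21 h, a 3.89-fold rise (log2 1.96 ± 0.14; limma, adjusted p = 5.67e-05).

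Hbegf, the heparin-binding ligand, had 47.7 and 58.8 RPKM of footprints with PBS, 45.4 and 66.9 at 6 h, and 144 and 127 at 21 h. The 6 h libraries lay on either side of PBS, and 21 h was 2.48-fold higher than PBS (log2 1.31 ± 0.19, SE; limma, adjusted p = 0.000927). In RNA, Hbegf was at 12.83 and 10.01 RPKM with PBS, 16.5 and 12.0 at 6 h, and 38.5 and 43.3 at 21 h, a 3.30-fold rise (log2 1.72 ± 0.19; limma, adjusted p = 0.000354).

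The footprints of Btc and Tgfa did not follow. Btc (betacellulin) had 69.8 and 67.5 RPKM of footprints with PBS, 47.0 and 50.8 at 6 h, and 78.2 and 70.6 at 21 h, so that the 6 h libraries were the lowest. Its footprints fell by 0.50 on the log2 scale at 6 h (SE 0.10; limma, adjusted p = 0.0484) and were 0.58 higher at 21 h than at 6 h (SE 0.10; limma, adjusted p = 0.0042). Without either PBS library the adjusted p of the 6 h fall was 0.153 and 0.158, and without either 6 h library 0.237 and 0.22. At 21 h the difference from PBS was 0.08 (-0.16 to 0.31; limma, adjusted p = 0.581). Btc RNA was 7.20 and 8.87 RPKM with PBS, 7.01 and 6.78 at 6 h, and 14.2 and 10.8 at 21 h, with 21 h above the 4 other libraries but short of the threshold (log2 0.52, 0.07 to 0.97; limma, adjusted p = 0.0908).

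Tgfa (transforming growth factor alpha) had the lowest footprint level of the ligands, with 26.2 and 13.0 RPKM of footprints with PBS, 21.0 and 29.2 at 6 h, and 10.2 and 16.2 at 21 h. PBS and 21 h overlapped, on 18 to 65 reads per library, and the change was -0.54 (-1.28 to 0.20; limma, adjusted p = 0.22). With 1 library left out, it ranged from -1.01 (adjusted p = 0.0474, without PBS library 2) to -0.07 (adjusted p = 0.882, without PBS library 1), and it was -0.21 without Cis 21 h library 1. Against 6 h, both 21 h footprint libraries were lower, by -0.94 (-1.68 to -0.20), short of the threshold (limma, adjusted p = 0.0585). Of 16 refits with other settings or a library left out, 10 left this difference uncalled and 6 called it lower. Tgfa RNA was 5.92 and 4.64 RPKM with PBS, 3.89 and 3.64 at 6 h, and 2.94 and 3.70 at 21 h, below PBS in all 4 treated libraries (at 21 h -0.67, -1.20 to -0.14; limma, adjusted p = 0.0678).

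Errfi1 had 32.5 and 26.7 RPKM of footprints with PBS, 36.1 and 28.3 at 6 h, and 59.8 and 55.1 at 21 h. Its RNA was 21.4 and 19.4 RPKM with PBS, 22.0 and 22.3 at 6 h, and 61.1 and 58.2 at 21 h. PBS and 6 h overlapped in footprints, and 21 h was above both in each assay. The footprints rose 1.89-fold (log2 0.91 ± 0.15, SE; limma, adjusted p = 0.00179) and the RNA 2.72-fold (log2 1.44 ± 0.12; limma, adjusted p = 0.000109) over PBS.

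**Figure D2:**
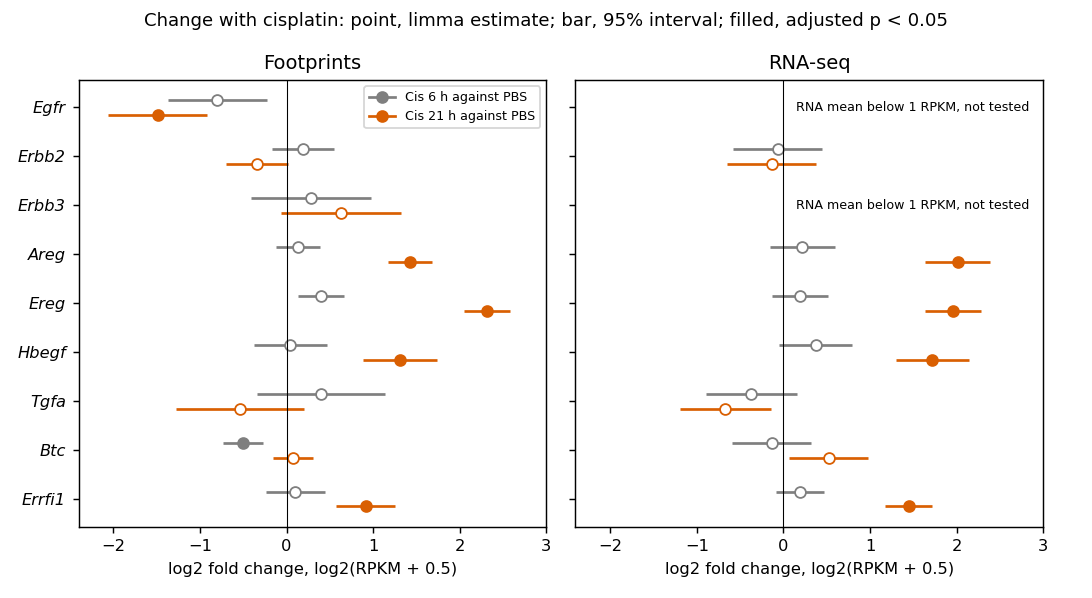
Log2 fold change against PBS of each gene at 6 h (grey) and 21 h (orange), in footprints (left) and RNA-seq (right), with the limma estimate as a point and its 95% interval as a bar. Filled points had an adjusted p under 0.05: Btc footprints at 6 h, and at 21 h the footprints of Egfr, Areg, Ereg, Hbegf and Errfi1 and the RNA of the last 4.

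At 21 h, 4 of the 9 genes were higher and 1 lower in footprints, where 18.9% and 20.2% of the 10383 genes tested were called higher and lower. In RNA, 4 of the 7 that could be tested were higher and 0 lower, against 11.6% and 12.2% of 9443 genes. The median change in footprints was 0.63 on the log2 scale for the 9 members and 0.01 for all genes. In RNA it was 1.44 for the 7 members tested, without Egfr and Erbb3, and 0.02 for all genes. The 2 member medians thus rest on different sets and cannot be compared between assays. Because the members were chosen with earlier results of these data known, these counts and medians describe them and are no test of the set. At 6 h, 0 of 9 were higher and 1 lower in footprints (1.05% and 0.992% of all genes), and in RNA 0 of 7 members and 0% of genes in either direction were called. The smallest unadjusted p of a member in RNA at 6 h was 0.0753 (Hbegf), 1086 genes had an unadjusted p under 0.05, and limma's voom on the reads behind the RPKM called 57 genes higher and 172 lower, with no member among them.

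Directly compared, 21 h differed from 6 h for more members. Footprints of Areg, Ereg, Hbegf, Btc and Errfi1 were higher and those of Erbb2 lower at 21 h, 5 and 1 of 9, with 15% and 15.7% of all genes called. In RNA, Areg, Ereg, Hbegf and Errfi1 were higher and 0 lower of 7, with 7.53% and 8.21% of all genes called.

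The ligands thereby changed in total and in proportion. Summed over the 5 ligands, footprint levels were 302 and 323 RPKM with PBS, 307 and 362 at 6 h, and 855 in each of the 21 h libraries. The 3 receptors together had 22.7 and 27.5 RPKM with PBS, 25.3 and 25.4 at 6 h, and 18.8 and 18.2 at 21 h. The ratio of ligand to receptor footprints was thus 13.3 and 11.7, then 12.2 and 14.3, then 45.5 and 46.9, and in RNA 8.3 and 8.55, 9.95 and 9.1, and 32.7 and 26.6. Areg was the leading ligand with PBS, with 31.2% and 34.8% of ligand footprints, followed by Btc and Ereg, whose libraries overlapped. By 21 h Ereg led with 38% and 43.1%, Areg kept 34.8% and 31.9%, and Btc went from 23.1% and 20.9% to 9.14% and 8.26%. In RNA, Areg led in both groups, with 31.3% and 35.5% and then 43.7% and 42.8%.

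**Figure D3:**
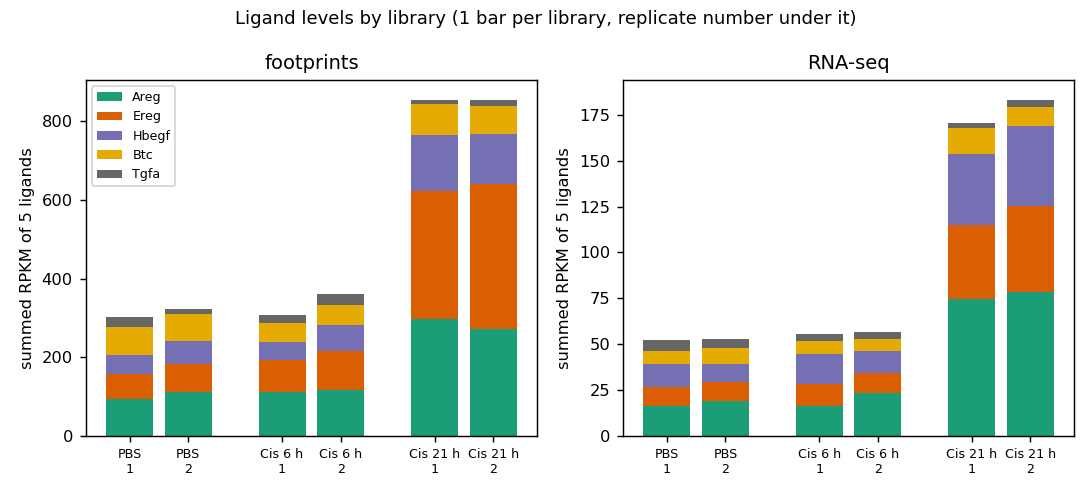
Summed RPKM of the 5 ligands in each library, footprints left and RNA-seq right, 1 bar per library and a color for each ligand. The bars of PBS and 6 h stand at 302 to 362 RPKM in footprints and both 21 h bars at 855, with Ereg (orange) the broadest segment at 21 h on the left.

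Footprints and RNA together gave the translation efficiency (TE), the ratio of footprints to RNA. With PBS, this ratio of RPKM values was 9.8 for Egfr, 8.55 for Btc, 6.6 for Ereg, 5.88 for Areg, 4.66 for Hbegf, 3.71 for Tgfa, 3.52 for Erbb2, 2.24 for Erbb3 and 1.45 for Errfi1, beside a median of 3.44 over the genes tested. Errfi1 was thus among the less translated messages, above 12.8% of genes, and at 21 h its ratio of 0.963 was above 6.49%. The value of Egfr rests on 15 and 20 RNA reads. The change in TE was tested for 7 members and passed for 0 of 7 at 6 h, where 0% of genes were called in either direction (710 had an unadjusted p under 0.05, and voom called 4 higher and 10 lower), and for 0 of 7 at 21 h, where 0.258% were called higher and 0.151% lower. At 21 h, Areg (-0.58, -1.06 to -0.11; limma, adjusted p = 0.304) and Errfi1 (-0.53, -0.97 to -0.09; adjusted p = 0.308) were the members with an unadjusted p under 0.05. For both, the footprints had risen less than the RNA, and for Ereg the estimate was 0.36 (-0.03 to 0.74; limma, adjusted p = 0.446). Without the filter, Egfr had a TE change of -0.93 (-1.73 to -0.14; limma, adjusted p = 0.357).

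The members differ widely in the length of their genes, and the pairing of long receptors with short ligands holds in part. Egfr spans 161.7 kb, the longest of the 9, but Erbb2 and Erbb3 span 25.2 and 22.1 kb, less than the ligands Tgfa (80.7 kb) and Btc (45.7 kb). Ereg, Errfi1, Hbegf and Areg span 19.0, 15.1, 10.9 and 8.83 kb. The genes that rose at 21 h were therefore the 4 shortest, and the gene that fell was the longest. Over all genes tested, the median footprint change at 21 h was 0.20 under 10 kb, 0.17 from 10 to 30 kb, -0.17 from 30 to 100 kb and -1.08 from 100 kb up, where 74.9% of 1123 genes were called lower. Egfr, at -1.49, had an interval that includes the median of its class, while Areg, Ereg, Hbegf and Errfi1 lay above the medians of theirs by more than the width of their intervals. Tgfa (-0.54) and Erbb2 (-0.34) were below the medians of their classes and Btc (0.08) and Erbb3 (0.63) above them, though the intervals of Tgfa and Erbb3 include those medians. In RNA the class medians at 21 h were 0.13, 0.16, -0.08 and -0.85.

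**Figure D4:**
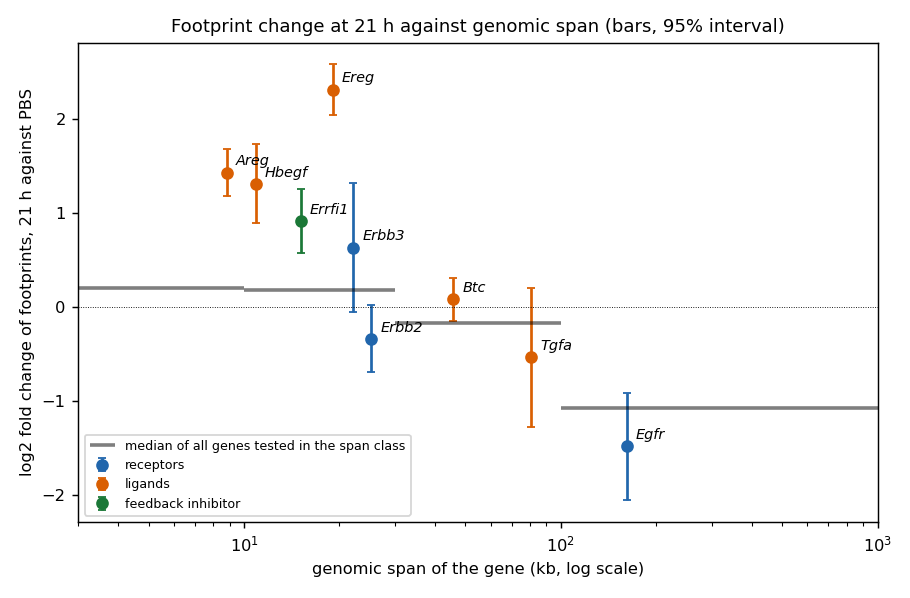
Log2 fold change of footprints at 21 h against PBS (vertical axis, bars the 95% interval) by genomic span in kb (log scale), for receptors in blue, ligands in orange and Errfi1 in green. Grey lines give the median of all genes in each span class, from 0.20 under 10 kb to -1.08 at 100 kb and over, and the outer lines end at the edges of the plot.

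Ereg, Areg and Btc are consecutive protein-coding genes in the RefSeq order, with Epgn on the other side of Ereg. These neighbours encode related ligands, and their footprints did not move alike: Ereg and Areg rose at 21 h, and Btc did not pass against PBS. Btc RNA was higher in both 21 h libraries than with PBS, short of the threshold. Epgn (epigen) had 0 and 0 footprint reads with PBS, 2 and 1 at 6 h, and 5 and 3 at 21 h. It reached the filter of 1 RPKM through the 21 h libraries, on these few reads, so its change is not given here, and its RNA had 0 to 2 reads in each library. Nrg1, the main ligand of Erbb3 and a gene of 1084 kb, had 68 and 52 footprint reads with PBS, 22 and 23 at 6 h, and 8 and 3 at 21 h. Its footprints fell by 2.32 on the log2 scale at 21 h (SE 0.34; limma, adjusted p = 0.00108), its RNA changed by -0.34 (-0.97 to 0.29; adjusted p = 0.424), and the difference between the assays was -1.98 (-2.94 to -1.02; adjusted p = 0.0849). Egf had at most 4 reads in any library, Erbb4 at most 1, Nrg4 was listed in 2 libraries, and Nrg2 and Nrg3 had no listed value.

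Other genes of the pathway moved in both directions. Of 70 in 5 lists, 61 could be tested in footprints at 21 h, and 9 were higher and 15 lower, where 18.9% and 20.2% of all genes were called (median -0.22 on the log2 scale, against 0.01 for all genes). In RNA, 3 of 59 were higher and 13 lower, beside 11.6% and 12.2% of all genes (median -0.10, against 0.02). The count of higher genes includes Epgn. At 6 h the footprints of Socs3 were higher (log2 0.87 ± 0.16, SE; limma, adjusted p = 0.0385) and those of Cd2ap lower (-0.53 ± 0.09; adjusted p = 0.035), and in RNA 0 of 59 passed. Socs3 and Cd2ap were picked out at 6 h after their values were seen.

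Of 7 tested genes that release the ligands, 2 were higher and 2 lower in footprints at 21 h (18.9% and 20.2% of all genes). Adam10, a protease that sheds Btc, fell from 87.7 ± 1.15 to 42.7 ± 1.70 RPKM (SD, n = 2; log2 -1.07; limma, adjusted p = 0.000128), and its RNA also fell (-0.88, adjusted p = 0.0049). Adam9 fell by 0.61 on the log2 scale, while Frmd8, a partner of the iRhom proteins that carry ADAM17 to the surface, rose by 0.58 and Adam15 by 0.53 (limma, adjusted p = 0.00165, 0.0094 and 0.0206). Adam17 itself, the main sheddase of Areg, Ereg, Hbegf and Tgfa, was tested and did not pass.

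Among 17 tested adaptors and effectors next to the receptors, 2 were higher and 5 lower in footprints (18.9% and 20.2% of all genes). Vav2, a guanine nucleotide exchange factor, fell from 4.69 ± 0.57 to 1.24 ± 0.73 RPKM (log2 -1.66; limma, adjusted p = 0.00492), and Sos2, an exchange factor for RAS, from 8.92 ± 0.05 to 3.75 ± 0.84 (-1.20, adjusted p = 0.00571). Both also fell in RNA (-1.58 and -0.76; adjusted p = 0.00869 and 0.0219), as did the adaptor Nck2 (-1.03, adjusted p = 0.0459). Shc1, the adaptor that links receptors to Grb2 and SOS, rose from 54.2 ± 3.39 to 86.2 ± 7.26 RPKM (0.63, adjusted p = 0.00275). Its RNA rose as well (0.47; limma, adjusted p = 0.0387). Crkl was the other adaptor that rose (0.45, adjusted p = 0.00891), and Nck2, Ptpn11 and Stat3 also fell in footprints (-0.56, -0.39 and -0.31; adjusted p = 0.0224, 0.0461 and 0.0481). Stat3 RNA was lower too (-0.73; limma, adjusted p = 0.0238).

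The 19 tested negative regulators had 3 higher and 4 lower in footprints (18.9% and 20.2% of all genes). Spry4, a Sprouty inhibitor of RAS-MAPK signaling, rose from 2.70 ± 0.11 to 10.7 ± 0.63 RPKM (log2 1.77; limma, adjusted p = 0.000495), and Socs3, an inhibitor of cytokine receptors, from 19.8 ± 4.31 to 43.6 ± 1.95 (1.10, adjusted p = 0.00111). Dok1 was the other gene that rose (0.55, adjusted p = 0.0115). Cblb, a ubiquitin ligase that sends activated receptors to degradation, fell in footprints (-1.05, adjusted p = 0.0101) and RNA (-1.16, adjusted p = 0.0182), and so did the leucine-rich repeat protein Lrig1 (-0.90 and -0.95; adjusted p = 0.0111 and 0.0156) and Spred2 (-1.04 and -0.95; adjusted p = 0.00148 and 0.00426). Spred1 fell in footprints (-0.62, adjusted p = 0.0107). Spry2 RNA rose (1.07, adjusted p = 0.0018) and the RNA of the phosphatase Ptprj fell (-1.42, adjusted p = 0.00214).

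Of 16 genes for endocytosis and sorting of the receptors, 1 was higher and 3 lower in footprints (18.9% and 20.2% of all genes). Sh3kbp1 and Cd2ap, scaffolds that join Cbl to endocytosis, fell in footprints (log2 -1.30 and -0.88; limma, adjusted p = 0.000144 and 0.00023) and RNA (-1.15 and -0.75; adjusted p = 0.0141 and 0.0015). Hgs, which sorts ubiquitinated receptors at the endosome, rose in footprints (0.84, adjusted p = 0.000542) and RNA (0.75, adjusted p = 0.00507). In footprints Snx1 was the third to fall (-0.36, adjusted p = 0.0216), and in RNA Eps15 and Epn1 were lower besides (-0.53 and -0.44; adjusted p = 0.0347 and 0.0429). Over the 5 lists and both assays, the 18 genes called lower at 21 h spanned 18.0 to 1084 kb (median 100.4) and the 10 called higher, Epgn included, 2.56 to 35.5 kb (median 10.9). Adam15, Crkl, Ptpn11, Stat3, Dok1, Lrig1, Spred1, Spred2, Snx1, Eps15 and Epn1 were added to the text after their values were seen.

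The genes whose levels ran most like those of Hbegf and Errfi1 were searched among 9294 genes over the 12 libraries, by the root mean square difference of log2 levels after each gene was centred within its assay. Closest to Hbegf were the immediate-early gene Ier2 (0.19), the zinc finger gene Zkscan5 (0.19) and Rassf1 (0.21). Closest to Errfi1 were Snrnp48 (0.10), a component of the minor spliceosome, Nabp1 (0.12), which binds single-stranded DNA, and the kinase gene Ripk4 (0.13). Ier2 was 1.34 higher in footprints and 1.60 higher in RNA at 21 h than with PBS, on the log2 scale, beside 1.31 and 1.72 for Hbegf, and Snrnp48 was 1.07 and 1.53 higher, beside 0.91 and 1.44 for Errfi1. Such like changes follow from the search, which used the same 12 libraries.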

How the data were processed

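Ribosome footprints (25-35 nt fragments left after RNase I) and RNA-seq of KPC cells were analysed in 12 libraries, 2 for every assay and group. Samples were grouped by their labels, and the study's methods gave the dose and named the control PBS. The authors deposited RPKM in each library for 1 transcript per gene, with the coding sequence as the length for footprints and the whole transcript for RNA-seq. Per the submitters' processing notes, cutadapt, STAR and GRCm39 were used, without versions. Genes not listed in a library were set to 0. Length times RPKM gave whole reads in 100% of cases (tolerance 0.001 read), and from these the depth. Read numbers and floors (3 reads) include no error beyond counting.

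Median-of-ratios factors scaled the RPKM values of an assay, and genes whose scaled mean reached 1 RPKM were kept. Values on the scale log2(RPKM + 0.5) were fitted with limma 3.58.1 (R 4.3.3, eBayes with trend). The 3 groups of an assay shared a model, and TE was the assay-by-treatment interaction in all 12 libraries. Fold changes are on this scale, which understates the change of genes with low values, such as Egfr and Erbb3. Two-sided p-values were adjusted by Benjamini-Hochberg over all genes, with a threshold of 0.05. An exact permutation test of 2 against 2 libraries cannot go below p = 0.333. Tests were checked on simulated data.

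The members and the gene lists were chosen with earlier results of these data known. Genes named from a list are those past the threshold with the largest changes at 21 h, at most 3 per list and assay, besides others said to be added later. Genomic spans (for 99.1% of genes, by symbol) and the order of genes come from RefSeq on GRCm38.p6 and were used as lengths and order only. Promoter windows are from the same build and were matched by symbol for 6 of the 9 members. Results were recomputed with a pseudocount of 0.1 or 1, without the filter, with a mean of at least 5, without scaling or trend, with quantile normalization, with the compared groups alone, with the replicate number as a block, with voom on the reads, and with each library left out. Python 3.11.15 (pandas 2.3.3, numpy 2.4.6, matplotlib 3.10.9) read the files and drew the figures. Part of the genotype of the line is not reported here.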

Additional observations from a re-analysis of the deposited data

Results flagged for a closer look

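For 6 of the 9 genes the change in footprints at 21 h differed from that at 6 h by limma's test of the difference itself, with the same PBS libraries behind both. The difference, on the log2 scale, was 1.91 for Ereg, 1.30 for Areg, 1.27 for Hbegf, 0.81 for Errfi1, 0.58 for Btc and -0.53 for Erbb2. In RNA the same test found a difference for 4 of the 7 genes tested, of 1.79 for Areg, 1.77 for Ereg, 1.35 for Hbegf and 1.26 for Errfi1. Of all genes, this test called 15% higher and 15.7% lower at 21 h in footprints, and 7.53% and 8.21% in RNA. For Btc, the footprints had been lower than PBS at 6 h and lay close to PBS at 21 h, and for Erbb2 they lay above PBS at 6 h and below it at 21 h. Neither change of Erbb2 against PBS passed the threshold, and its difference between the times lost the call in 5 of 16 alternatives. Groups of 2 libraries are too small to search for a single library that stands apart.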

How the results depend on the processing

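The rises of Areg, Ereg, Hbegf and Errfi1 at 21 h in both assays, and the fall of Egfr footprints, stayed past the threshold under every alternative that tested them, with adjusted p up to 0.0277 (Egfr was not tested with a mean of at least 5). Of 1060 alternative values for 62 results on single members, 1010 kept direction and call, 14 lost the call, 17 gained it and 19 changed sign. Losses were those of Btc footprints at 6 h (9) and Erbb2 footprints at 21 h against 6 h (5). For 21 h against 6 h, gains fell on Tgfa footprints (6), Btc RNA (3) and Egfr footprints (2). Against PBS, Egfr footprints gained 1 at 6 h, and Tgfa footprints 1 at 21 h. At 21 h voom also called Erbb2 and Erbb3 footprints (limma, adjusted p = 0.032 and 0.0294) and Tgfa and Btc RNA (0.0222 and 0.0366). At 6 h the count of members called in footprints, 1 (Btc), was 0 with a pseudocount of 0.1, no filter, no scaling, no trend and the replicate block, 2 with voom (Btc and Egfr, -0.85, adjusted p = 0.00669), and 0 to 1 with a library left out. Leaving out a library gave the sign changes, all in results that were not called: footprints at 6 h of Areg (-0.02 to 0.27), Hbegf (-0.235 to 0.322), Tgfa (-0.0793 to 0.86) and Errfi1 (-0.071 to 0.272); RNA of Areg at 6 h (-0.0437 to 0.479) and of Erbb2 at 21 h against PBS (-0.356 to 0.0906) and against 6 h (-0.297 to 0.15); TE at 6 h of Areg (-0.348 to 0.175) and Errfi1 (-0.26 to 0.083), and at 21 h of Tgfa (-0.344 to 0.597) and Erbb2 (-0.433 to 0.0137). Btc footprints at 21 h were -0.0117 with quantile normalization, and Erbb2 RNA at 21 h against 6 h was 0.069 without scaling. The cause of these changes was not tested. Without scaling, the median of all genes in RNA at 21 h against 6 h moved from 0.01 to 0.15 on the log2 scale and the calls from 711 higher and 775 lower to 1234 and 514. Over all genes, footprints at 6 h had 109 higher and 103 lower, but 9 and 8 without the filter, 0 and 0 without the trend, 17 and 20 with the replicate block, 454 and 822 with voom, and 0 and 0 without Cis 6 h library 2. TE at 21 h had 24 and 14, but 0 and 0 without the trend, 2 and 3 with the replicate block and 73 and 78 with voom. No pairing by replicate number was seen, with correlations of -0.04 to 0.035 between the deviations of same-numbered libraries. These values do not exclude cultures or lysates shared by same-numbered libraries. The replicate block took away the call of Btc at 6 h (limma, adjusted p = 0.0832) and no other of a member. Depth was low for Egfr RNA (6 to 20 reads per library), Erbb3 RNA (8 to 15) and the footprints of Tgfa (18 to 65), Erbb3 (29 to 48) and Egfr (22 to 116).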
